A study of Mus musculus with 7 samples.

Results

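The 9 epidermal and stress keratin genes *Krt5*, *Krt14*, *Krt1*, *Krt10*, *Krt2*, *Krt6a*, *Krt6b*, *Krt16* and *Krt17* were followed in skin papillomas with and without transgenic *Nanog*. They were picked by symbol, with earlier results of these data known, from the 23284 gene symbols measured, which include 51 keratin symbols in all. Their levels did not enter the rule. Total polyA+ RNA from 4 CTR and 3 TG papillomas was sequenced, each papilloma from a different mouse of C57Bl/6 background. All mice carried the *tetO-Nanog* transgene, were treated with DMBA, a carcinogen, and TPA, a tumor promoter, and drank doxycycline (DOX, 2 mg/ml) over the whole protocol. TG mice also carried *K5-rtTA*, a transactivator driven by the bovine keratin 5 promoter, which is active in the basal layer of stratified epithelia, and CTR mice lacked it. The labels do not give the ages of the mice, and the paper describes the mice that entered the protocol as age-matched. Per the paper, papillomas were taken when the protocol ended or earlier, at a humane endpoint. Which of these applies to each papilloma is not known here, so exposure times may differ. The paper describes CTR and TG mice as littermates, but the labels state no pairing by replicate number, and none was assumed.

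*Nanog* reached 36.9, 57.4 and 66.9 FPKM (fragments counted on a gene, scaled for its length and for library depth) in TG 1, TG 2 and TG 3, against 2.70, 2.84, 12.7 and 3.35 FPKM in CTR 1 to CTR 4, so the labels and the targeted gene go together. Read depth, inferred from the Cufflinks confidence intervals, lay between 10074859 and 15710562 reads, with CTR 3 and TG 1 above the other 5 papillomas. TG 3 stood apart from the rest. Its median FPKM was 1.15 against 0.551 to 0.689 elsewhere, and its correlations with the other papillomas across genes (0.903 to 0.937 on the log2 scale) were below those among the others (0.945 to 0.977). All 15 skeletal muscle markers were highest in TG 3, with a summed 948 FPKM there and 9.74 to 15.3 FPKM in the others, and so were all 12 fibroblast markers, with 862 FPKM against 97.6 to 182 FPKM. Differences of the keratins and medians of the gene lists are therefore also given without TG 3. Many of the muscle markers, such as *Acta1*, *Ckm* and *Myh1*, are among the genes the paper lists as raised in these TG papillomas. The muscle list is thus not independent of these data.

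Keratins form the intermediate filaments of epithelial cells, and a filament needs a type I and a type II keratin. Basal keratinocytes use the pair *Krt5* and *Krt14*, cells that leave the basal layer switch to *Krt1* and *Krt10*, and *Krt2* is added late in a few sites of mouse skin such as ear, tail and sole. *Krt6a*, *Krt6b*, *Krt16* and *Krt17* are low in the resting epidermis between hair follicles and are induced by wounding, TPA and tumor growth. The type II genes (*Krt5*, *Krt1*, *Krt2*, *Krt6a*, *Krt6b*) lie on mouse chromosome 15 and the type I genes (*Krt14*, *Krt10*, *Krt16*, *Krt17*) on chromosome 11, each set in a cluster of related copies.

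Some of these copies are alike over more than the length of a read, which was 40 bases here, so their separate values depend on how shared reads were divided. The windows below come from exon 1 of the GENCODE transcripts (GRCm38, minus strand) and are shown because they hold such a stretch. Capitals mark bases that differ from the first gene of each set. *Krt6a* is at chr15:101693916-101693975, *Krt6b* at chr15:101679891-101679950 and *Krt5* at chr15:101712448-101712507.
Krt6a: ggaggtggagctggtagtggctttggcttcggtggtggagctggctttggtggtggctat
Krt6b: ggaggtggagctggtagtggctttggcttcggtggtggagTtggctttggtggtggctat
Krt5: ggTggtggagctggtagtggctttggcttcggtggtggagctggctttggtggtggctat
Over these 60 bases *Krt6b* and *Krt5* each had 1 difference from *Krt6a*. For the type I genes, *Krt14* is at chr11:100206997-100207056, *Krt16* at chr11:100248456-100248515 and *Krt17* at chr11:100260618-100260677.
Krt14: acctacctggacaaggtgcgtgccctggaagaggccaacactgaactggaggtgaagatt
Krt16: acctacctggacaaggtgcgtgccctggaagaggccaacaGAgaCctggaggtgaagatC
Krt17: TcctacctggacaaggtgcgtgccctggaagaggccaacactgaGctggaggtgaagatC
*Krt16* had 4 differences from *Krt14* and *Krt17* had 3, and the first 40 bases of *Krt14* and *Krt16* were identical.

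Over whole coding sequences *Krt6a* and *Krt6b* were 97.8% identical, *Krt14* and *Krt16* 86.5%, *Krt14* and *Krt17* 84.1%, and *Krt6a* and *Krt5* 81.9%. The longest identical run was 280 bases between *Krt6a* and *Krt6b* and 134 bases between *Krt14* and *Krt16*. Of all 40-base stretches of a transcript, 52.4% in *Krt6a* and 53.5% in *Krt6b* also occurred in another gene, mostly in each other (1042 stretches). For *Krt16* the share was 44.3%, of which the largest part was with *Gm11597* (428 stretches) and the next with *Krt14* (248 stretches). It was 21.3% in *Krt14*, 9.87% in *Krt5*, 8.99% in *Krt17* and 0.155% in *Krt2*. *Krt1* and *Krt10* shared 0 stretches with any other gene, so their levels are free of this limit at exact matching. The authors' alignment allowed mismatches, so the true overlap is larger.

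**Figure D1:**
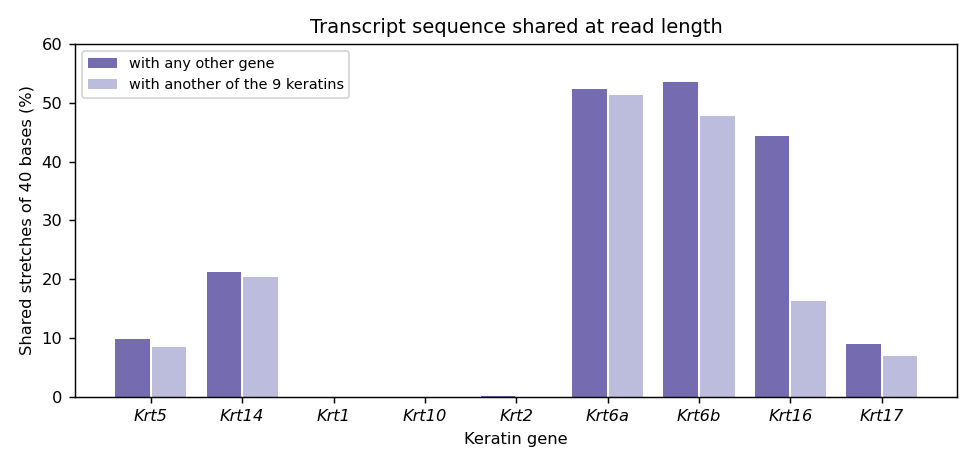
Share of the 40-base stretches of each keratin transcript (%, vertical axis) that also occur in any other gene (dark bars) or in another of the 9 keratins (light bars). *Krt6a*, *Krt6b* and *Krt16* have the tallest dark bars, at 52.4%, 53.5% and 44.3%, and *Krt1* and *Krt10* are at 0.

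The papillomas were keratin-rich in both groups. *Krt6b*, *Krt14*, *Krt16* and *Krt6a* took ranks 1 to 4 of all genes by mean FPKM over the 7 papillomas, with means of 7401, 7286, 6961 and 6578 FPKM. *Krt10* (1591 FPKM), *Krt5* (1529 FPKM), *Krt17* (1284 FPKM) and *Krt1* (1017 FPKM) took ranks 25, 26, 31 and 50. *Krt2* stood at 0.176 FPKM and rank 14153. FPKM is a level per transcript length, and within the first 4 and within the next 4 genes the ranges over the papillomas overlapped, so the order inside each set is not resolved. The 9 keratins together made up 8.18% to 9.57% of all FPKM in CTR papillomas and 10.8%, 10.1% and 7.06% in TG 1, TG 2 and TG 3. In bulk tissue, fewer cells of a type and less RNA per cell cannot be told apart.

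**Figure D2:**
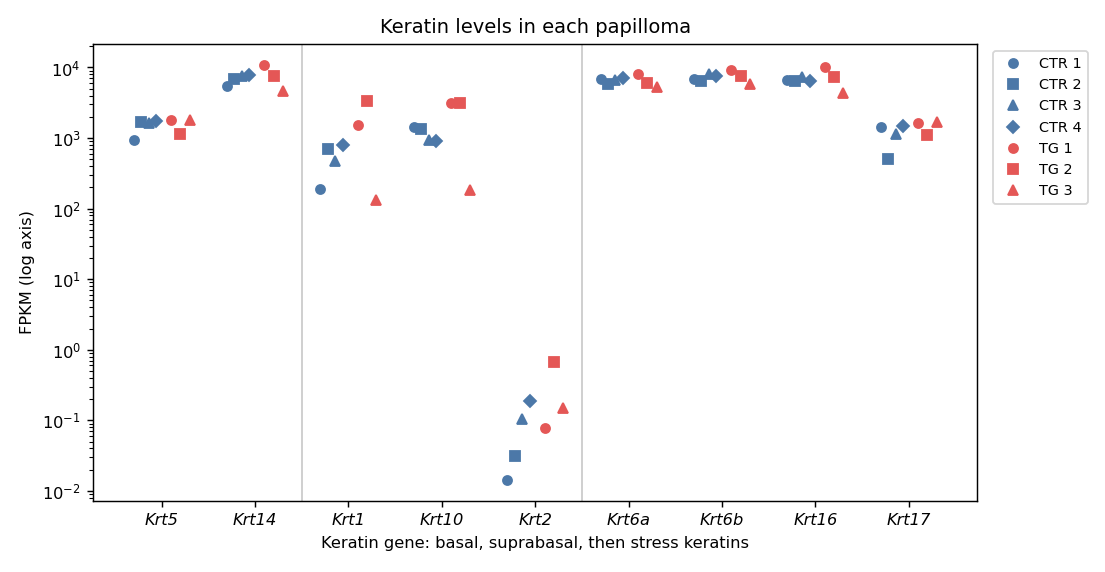
FPKM (log axis) of each keratin in each papilloma, CTR in blue and TG in red, with vertical lines between basal, suprabasal and stress keratins. The TG points of *Krt1* and *Krt10* spread the most among the 8 abundant genes, from 133 to 3309 FPKM and from 181 to 3150 FPKM, and *Krt2* lies below 1 FPKM throughout.

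The question for each gene was whether TG papillomas differed from CTR papillomas. Group means of log2(FPKM + 0.5) were compared with limma over the 12299 genes whose mean reached 0.5 FPKM, with Benjamini-Hochberg adjustment over all of them. An exact 2-sided permutation test over the 35 splits of the papillomas was added for single genes, whose smallest possible p is 0.0286. Of the 8 keratins that could be tested, 0 had an adjusted p under 0.05, against 0 of 12299 genes (0%) in the whole table. Before adjustment, 598 genes (4.86%) passed the same threshold with a higher and 241 (1.96%) with a lower mean in TG papillomas, and 0 of the keratins were among them. The groups overlapped for all 8 keratins, whereas 4.93% of all genes were higher in every TG than in every CTR papilloma and 2.23% were lower. Since *Nanog* itself had an adjusted p of 0.40 in this limma fit, with a log2 difference of 3.45 (exact permutation p = 0.0286), a missed threshold here does not show that levels were equal.

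*Krt5*, the type II keratin of basal cells (chromosome 15, 101707070 to 101712891, GRCm38), had 942, 1697, 1630 and 1730 FPKM in CTR 1 to CTR 4. In TG 1, TG 2 and TG 3 it had 1777, 1144 and 1783 FPKM. TG 1 and TG 3 lay just above the CTR papillomas and TG 2 lay within their range, while CTR 1 was the lowest of the 7. The means were 1500 ± 374 FPKM (SD, n = 4) in CTR and 1568 ± 367 FPKM (SD, n = 3) in TG papillomas. The log2 difference, TG minus CTR, was 0.08 with a standard error of 0.31 (limma adjusted p = 0.986, exact permutation p = 0.743), smaller than the spread between papillomas in either group. It was -0.03 without TG 3.

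*Krt14*, the type I partner of *Krt5* (chromosome 11, 100203162 to 100207510), had 5494, 6932, 7487 and 7874 FPKM in CTR 1 to CTR 4. In TG 1, TG 2 and TG 3 it had 10937, 7561 and 4717 FPKM. TG 1 was the highest and TG 3 the lowest of all papillomas, so TG values enclosed the CTR values. The means were 6947 ± 1043 FPKM (SD, n = 4) and 7738 ± 3114 FPKM (SD, n = 3), and the log2 difference was 0.09 (standard error 0.37, limma adjusted p = 0.987, exact permutation p = 0.886), or 0.40 without TG 3. *Krt5* stood at 0.171 to 0.245 of *Krt14* in CTR papillomas. The TG papillomas gave 0.162, 0.151 and 0.378 in order of their numbers, so the basal partners parted most in TG 3, where *Krt14* was low and *Krt5* was not.

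*Krt1*, the type II keratin of suprabasal cells (chromosome 15, 101845426 to 101850786), had 187, 698, 470 and 807 FPKM in CTR 1 to CTR 4. In TG 1, TG 2 and TG 3 it had 1517, 3309 and 133 FPKM. TG 1 and TG 2 were above all CTR papillomas and TG 3 was below all of them. Relative to the CTR mean, *Krt1* was at 2.81-fold in TG 1, 6.12-fold in TG 2 and 0.245-fold in TG 3. The means were 541 ± 274 FPKM (SD, n = 4) and 1653 ± 1593 FPKM (SD, n = 3). With TG papillomas on both sides of the CTR range, the log2 difference of 0.89 had a standard error of 0.99 (limma adjusted p = 0.921, exact permutation p = 0.514).

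*Krt10*, the type I partner of *Krt1* (chromosome 11, 99385256 to 99389364), had 1440, 1365, 950 and 917 FPKM in CTR 1 to CTR 4. In TG 1, TG 2 and TG 3 it had 3150, 3133 and 181 FPKM. As for *Krt1*, TG 1 and TG 2 were above and TG 3 below every CTR papilloma. *Krt10* stood at 2.70-fold of the CTR mean in TG 1, 2.68-fold in TG 2 and 0.155-fold in TG 3. The means were 1168 ± 273 FPKM (SD, n = 4) and 2155 ± 1709 FPKM (SD, n = 3), and the log2 difference was 0.09 (standard error 0.90, limma adjusted p = 0.995, exact permutation p = 1). The 4 CTR papillomas lay within 1.57-fold of each other for this gene, whereas the TG papillomas spanned 17.4-fold.

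Without TG 3, the TG papillomas were higher than all CTR papillomas for *Krt10*, *Krt1* and *Krt16*, 3 of the 8 tested keratins, against 8.94% of all genes, and lower for 0 keratins, against 8.97% of all genes. The log2 difference of *Krt10* was then 1.46 (standard error 0.30, limma unadjusted p = 0.00112, adjusted p = 0.124). For *Krt1* it was 2.25 (standard error 0.59, limma unadjusted p = 0.00504, adjusted p = 0.227), and for *Krt16* 0.38 (standard error 0.34, limma adjusted p = 0.834). None of these passed the adjusted threshold. Leaving out TG 2 instead separated other keratins. *Krt5* and *Krt17* were then higher in the remaining TG papillomas, as were 1211 of 12299 genes. *Krt1* and *Krt10* then overlapped, with log2 differences of -0.0715 and -0.60. Without TG 1 all 8 tested keratins overlapped, although 1605 of 12299 genes were higher and 891 lower in the remaining TG papillomas. In that case the log2 difference was 0.49 for *Krt1* and -0.60 for *Krt10*. Which keratins separated thus depended on the papilloma left out. The choice to leave out TG 3 here follows its distance from the other papillomas, which was known from earlier results. When papillomas were instead weighted by estimated quality, TG 3 received a weight of 0.272, TG 1 one of 0.562 and TG 2, which had the most *Krt1*, one of 3.11. The log2 differences were 2.19 for *Krt1* (limma adjusted p = 0.129) and 1.29 for *Krt10* (limma adjusted p = 0.197). The weights were estimated from the same expression values, so this fit is not independent of leaving out TG 3.

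The spread of the suprabasal pair in TG papillomas was wide among abundant genes. The SD of log2 values over the 3 TG papillomas was 2.42 for *Krt1* and 2.37 for *Krt10*, and of the 463 genes whose mean reached 100 FPKM, 8 and 9 had a larger one. The median SD of those genes was 0.391 in TG papillomas. Both SDs rest largely on TG 3. *Krt10* had 3150 and 3133 FPKM in TG 1 and TG 2 against 181 FPKM in TG 3, and *Krt1* had 1517 and 3309 FPKM against 133 FPKM. In CTR papillomas *Krt1* had an SD of 0.95, which 12 of the 463 genes exceeded, and *Krt10* one of 0.34, which 167 exceeded.

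The geometric mean of 15 genes used as an epidermal reference was not lower in TG 3, although 2 of them, *Sfn* and *Lgals7*, had their lowest value there (759 and 521 FPKM, against at least 858 and 935 FPKM elsewhere), and 5 had their highest. The geometric mean, relative to its mean over the 7 papillomas, stood at 1.09 for TG 3, 1.08 for TG 1 and 1.07 for TG 2, and ran from 0.717 to 1.08 for CTR papillomas. After division by this factor *Krt10* was still at 166 FPKM in TG 3, against 865 to 1905 FPKM in CTR papillomas, 2909 FPKM in TG 1 and 2939 FPKM in TG 2. *Krt1* was at 122 FPKM in TG 3, against 173 to 974 FPKM, 1401 FPKM and 3104 FPKM. The order of the groups of papillomas was thus the same with this scaling. The part of RNA from muscle, fibroblasts or other cells in the keratin values of TG 3 was not tested.

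*Krt1* stood at 0.130 to 0.881 of *Krt10* in CTR papillomas and at 0.482, 1.06 and 0.732 in TG 1, TG 2 and TG 3. The 2 partners therefore moved together in TG 3, where both were low, and the widest departure was in CTR 1, which had the highest *Krt10* and the lowest *Krt1* of the CTR papillomas.

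*Krt2*, the type II keratin added late (chromosome 15, 101810689 to 101818169), was near 0. It had 0.0143, 0.0317, 0.104 and 0.190 FPKM in CTR 1 to CTR 4 and 0.0785, 0.665 and 0.151 FPKM in TG 1 to TG 3. These values stand for between 0.5 and 48.6 reads by the width of their intervals, so differences among papillomas were not resolved at this depth in most of them. *Krt2* failed the filter on low values and has no limma value (exact permutation p = 0.200). TG 2, the papilloma with the highest *Krt1*, was also the highest for *Krt2*.

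**Figure D3:**
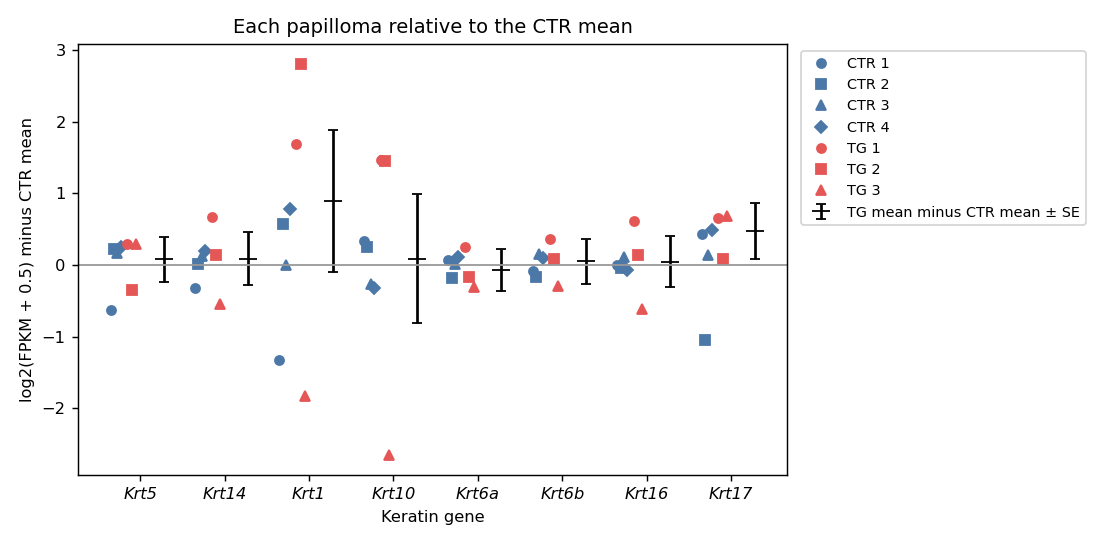
Log2(FPKM + 0.5) minus the CTR mean (vertical axis) for the 8 tested keratins in each papilloma, CTR in blue and TG in red, with the TG minus CTR difference and its standard error in black to the right of the points. TG 3 is the lowest point for *Krt1* (-1.83) and *Krt10* (-2.65), TG 1 and TG 2 are the highest for both, and the black marks of all 8 genes lie near 0 relative to their errors.

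The stress keratins were abundant in all papillomas, and *Krt17* varied most among them (3.33-fold over the 7 papillomas). *Krt6a*, a type II keratin (chromosome 15, 101689928 to 101694305), had 6965, 5877, 6742 and 7163 FPKM in CTR 1 to CTR 4 and 7965, 5959 and 5372 FPKM in TG 1 to TG 3. TG 1 was above and TG 3 below the CTR papillomas. The means were 6687 ± 566 FPKM (SD, n = 4) and 6432 ± 1360 FPKM (SD, n = 3), and the log2 difference was -0.07 (standard error 0.30, limma adjusted p = 0.986, exact permutation p = 0.686). Without TG 3 its sign turned, to 0.05.

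*Krt6b*, its near copy (chromosome 15, 101676023 to 101680289), had 6807, 6453, 8049 and 7695 FPKM in CTR 1 to CTR 4 and 9277, 7617 and 5908 FPKM in TG 1 to TG 3. TG 1 was again the highest and TG 3 the lowest. The log2 difference was 0.05 (standard error 0.31, limma adjusted p = 0.992, exact permutation p = 0.8), or 0.22 without TG 3. The ratio of *Krt6a* to *Krt6b* ran from 0.838 to 1.02 in CTR and from 0.782 to 0.909 in TG papillomas. Because these copies share reads, their sum is the safer value, and it was 13938 ± 1181 FPKM (SD, n = 4) in CTR and 14033 ± 3007 FPKM (SD, n = 3) in TG papillomas (log2 difference -0.01, exact permutation p = 0.971, and 0.14 without TG 3).

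*Krt16*, a type I partner of the *Krt6* keratins (chromosome 11, 100246091 to 100248902), had 6687, 6481, 7224 and 6375 FPKM in CTR 1 to CTR 4. In TG 1, TG 2 and TG 3 it had 10233, 7346 and 4383 FPKM. CTR papillomas lay within 1.13-fold of each other, and 448 of the 463 abundant genes varied more among them. TG papillomas fell on both sides of this narrow range and spanned 2.33-fold. The log2 difference was 0.05 (standard error 0.36, limma adjusted p = 0.994, exact permutation p = 0.771).

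*Krt17*, the other type I stress keratin (chromosome 11, 100256217 to 100260989), had 1413, 508, 1150 and 1465 FPKM in CTR 1 to CTR 4. In TG 1, TG 2 and TG 3 it had 1655, 1105 and 1689 FPKM. TG 1 and TG 3 were just above the CTR papillomas, TG 2 was within their range, and CTR 2 was well below the rest. The log2 difference was 0.47 (standard error 0.39, limma adjusted p = 0.867, exact permutation p = 0.429), and it was 0.13 without CTR 2 and 0.37 without TG 3. Among CTR papillomas, 23 of the 463 abundant genes varied more than *Krt17*. *Krt17* and *Krt5* were the stress and basal keratins that were not low in TG 3, where *Krt14*, *Krt6a*, *Krt6b* and *Krt16* were each below all CTR papillomas.

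Expressed as shares of the summed FPKM of the 9 keratins, the suprabasal part varied most between papillomas. *Krt1*, *Krt10* and *Krt2* together held 5.44%, 6.88%, 4.21% and 5.07% in CTR 1 to CTR 4, and 10%, 17.3% and 1.3% in TG 1 to TG 3. The basal pair held 21.5% to 28.8% in CTR and 23.4% to 27.3% in TG papillomas. The stress keratins held 64.4% to 73.1% in CTR and 62.6%, 59.3% and 71.8% in TG 1 to TG 3. Thus the stress keratins were the main part of this sum in all 7 papillomas, and the groups overlapped for each of the 3 classes.

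**Figure D4:**
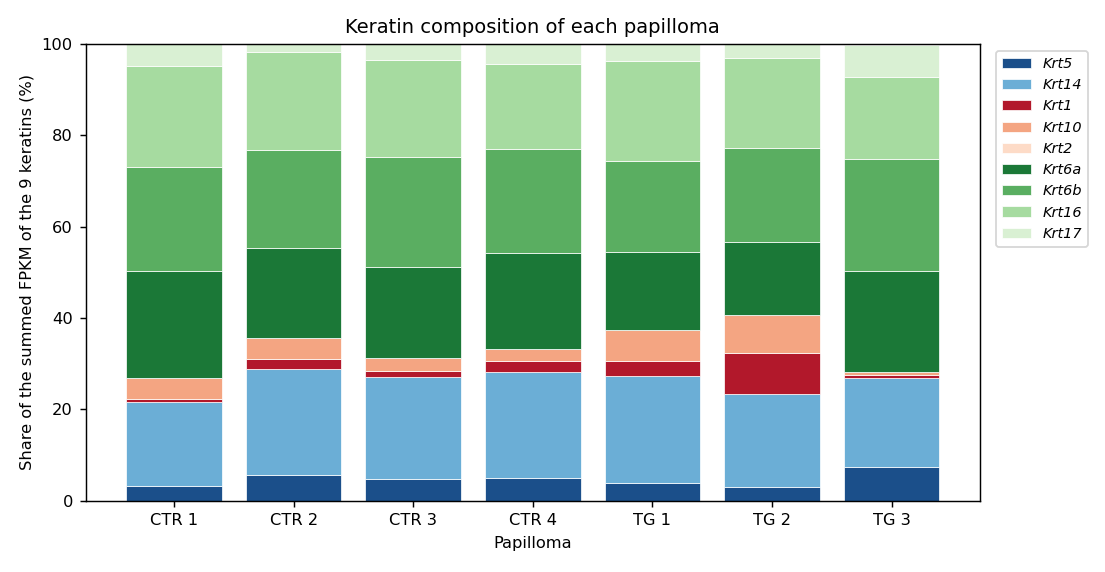
Share of the summed FPKM of the 9 keratins (%, vertical axis) taken by each gene in each papilloma, with basal keratins in blue, suprabasal in red and stress keratins in green. The red segments are widest in TG 2 (17.3%) and TG 1 (10%) and narrowest in TG 3 (1.3%), and the green segments hold at least 59.3% in every papilloma.

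The ratio of suprabasal to basal keratins was 0.253, 0.239, 0.156 and 0.180 in CTR 1 to CTR 4 and 0.367, 0.740 and 0.0483 in TG 1 to TG 3. Its highest and lowest values, 15.3-fold apart, were both in TG papillomas, and the log2 difference between the groups was 0.22 with and 1.36 without TG 3. The ratio of stress to basal keratins was far more even, with 2.24 to 3.40 in CTR and 2.29 to 2.67 in TG papillomas. For the pair *Krt6a* and *Krt16* the ratio ran from 0.907 to 1.12 in CTR papillomas, and it was 0.778, 0.811 and 1.23 in TG 1, TG 2 and TG 3. For *Krt6b* and *Krt17* it ran from 4.82 to 12.7 in CTR and from 3.5 to 6.89 in TG papillomas. The groups overlapped in all these ratios, which are descriptions without a test.

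**Figure D5:**
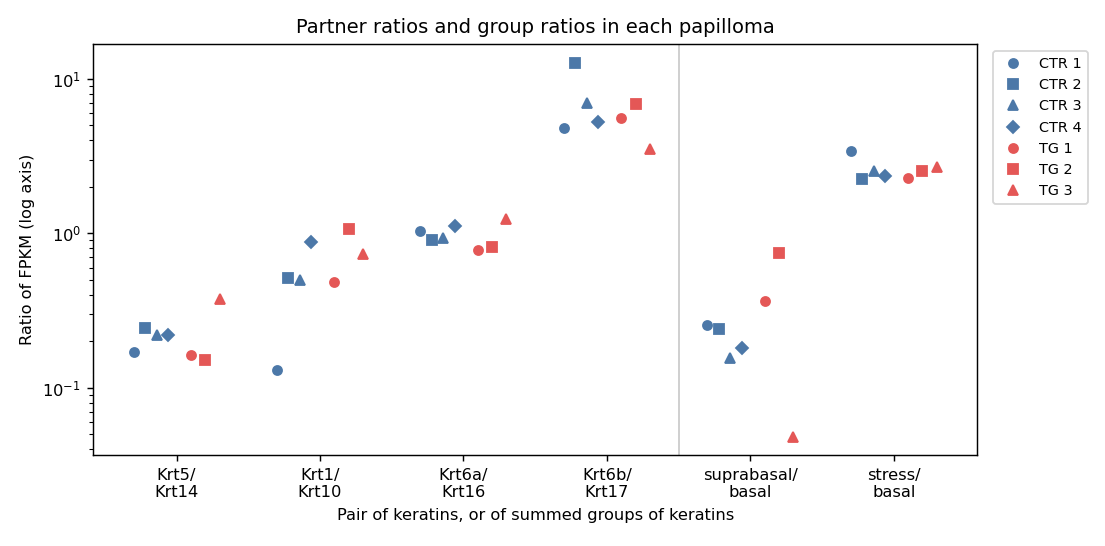
Ratios of FPKM (log axis) for 4 partner pairs of keratins and, right of the vertical line, for summed classes, in each papilloma, CTR in blue and TG in red. The suprabasal to basal ratio has the widest TG spread, from 0.0483 to 0.740, and the stress to basal ratio stays between 2.24 and 3.40.

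Genes whose profile over the 7 papillomas was nearest to each class were sought among 4282 genes whose mean reached 10 FPKM, by the root mean square distance of centred log2 values. For the suprabasal pair these were *Casp14* (0.32), a protease of the cornifying layers, *BC117090* (0.35) and *BC100530* (0.42). *Casp14* had 42.8 to 97.2 FPKM in CTR papillomas and 224, 266 and 17.0 FPKM in TG 1, TG 2 and TG 3. *BC100530* had 717 to 2339 FPKM in CTR papillomas and 8572, 7474 and 400 FPKM in TG papillomas. These genes were picked for their likeness to *Krt1* and *Krt10*, so that they share the pattern follows from the choice. For the basal pair the nearest genes were *Sra1*, *Lage3* and *2310011J03Rik* (0.11 each), and for the stress keratins *Tmem51* (0.08), *Rps6ka4* (0.09) and *Gm5414* (0.09). Profiles of these last 2 classes varied little, so small distances are common among genes, and *Gm5414* shares 131 of its 40-base stretches with *Krt6a* and 179 with *Krt6b*.

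Keratin filaments are anchored at desmosomes and hemidesmosomes and are bundled in cornifying cells by filaggrin-type proteins. Of 14 such partner genes tested, 0 passed the adjusted threshold in either direction and the median log2 difference was 0.30, against 0.06 over all tested genes (0.23 against -0.03 without TG 3). *Hrnr* (hornerin) had 17.6 to 33.6 FPKM in CTR papillomas and 52.1, 102 and 29.7 FPKM in TG 1, TG 2 and TG 3 (log2 difference 0.98, limma adjusted p = 0.707, and 1.41 without TG 3). *Flg2* (filaggrin-2) had 0.169 to 4.12 FPKM in CTR papillomas and 2.09, 7.61 and 2.25 FPKM in TG papillomas (log2 difference 1.16). *Plec* (plectin, which links keratin filaments to hemidesmosomes) had a log2 difference of 0.33. *Hrnr* was highest in the same TG papillomas as *Krt1*, yet TG 3 lay within the CTR range rather than below it.

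Of 21 transcription factors and signaling genes that act on keratin genes, 0 passed the adjusted threshold and the median log2 difference was -0.02 (0.10 without TG 3). *Stat3*, which relays cytokine signals, had 19.7 to 24.0 FPKM in CTR papillomas and 28.2, 34.4 and 33.2 FPKM in TG 1 to TG 3. It was higher in all 3 TG than in all 4 CTR papillomas (log2 difference 0.59, limma adjusted p = 0.564, exact permutation p = 0.0286). Such separation was seen for 1 of the 21 genes, against 4.93% of all genes, and *Stat3* was named for its small limma p. *Gata3*, a factor of epidermal differentiation, had 1.16 to 2.91 FPKM in CTR papillomas and 5.22, 7.34 and 1.67 FPKM in TG 1 to TG 3 (log2 difference 0.84, and 1.38 without TG 3). *Jun*, a subunit of AP-1, had a log2 difference of 0.53. *Trp63*, the master factor of stratified epithelia, was at 30.9 to 57.7 FPKM in CTR and at 38.9 to 48.8 FPKM in TG papillomas.

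Among 18 tested genes of the keratinocyte response to stress, 0 passed the adjusted threshold, 7 were higher and 2 lower before adjustment (4.86% and 1.96% of all genes), and the median log2 difference was 0.63 (0.61 without TG 3). *Lcn2*, an antibacterial lipocalin, had 2.14 to 10.4 FPKM in CTR papillomas and 26.4, 14.8 and 25.8 FPKM in TG 1 to TG 3 (log2 difference 2.28, limma adjusted p = 0.538). *Sprr2d*, a cornified envelope protein, had a log2 difference of 1.27 (limma adjusted p = 0.564), and *Ereg*, an EGF receptor ligand, one of 0.86 (limma adjusted p = 0.631). The 2 lower genes were *Sprr3*, another envelope protein (log2 difference -2.001, limma adjusted p = 0.687, TG 3 within the CTR range), and *Slpi*, a protease inhibitor, with 2865 to 5288 FPKM in CTR papillomas and 2294, 1901 and 2384 FPKM in TG papillomas (log2 difference -0.88, limma adjusted p = 0.687). The median of the stress keratins was 0.05 beside this (0.29 without TG 3), and a difference between the lists was not tested. In the keratinocyte marker list of 12 genes, 0 passed the adjusted threshold and the median was 0.09 (0.07 without TG 3). There *Ivl* (involucrin, a precursor of the cornified envelope) had 17.7 to 26.8 FPKM in CTR papillomas and 159, 108 and 36.4 FPKM in TG 1 to TG 3 (log2 difference 2.01, limma adjusted p = 0.538). *Lor* (loricrin, the main envelope protein) had 618 to 1555 FPKM in CTR papillomas and 1329, 690 and 366 FPKM in TG papillomas. Unlike *Krt1* and *Krt10*, *Ivl* was above all CTR papillomas in TG 3 as well, whereas *Lor* was below all of them there. *Ivl*, *Lor*, *Trp63*, *Sprr3*, *Slpi*, *Sfn*, *Lgals7* and, below, *Adipoq* were named after their values were seen.

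Markers of other cells were also read, since they can move with a group. Their summed levels in CTR papillomas, TG 1, TG 2 and TG 3 were 48.6 to 83.3, 72.1, 77.8 and 195 FPKM for leukocytes. For endothelium they were 7.86 to 13.6, 19.6, 10.9 and 29.7 FPKM. For hair shaft and inner root sheath they were 2.05 to 3.71, 2.78, 3.99 and 28.02 FPKM, and for sebocytes 19.8 to 49.2, 47.8, 19.4 and 113 FPKM. Each of these 4 sums was highest in TG 3, the papilloma with low suprabasal keratins, and stood near the CTR range in TG 2, where *Krt1* was highest. A sum can rest on few genes, and that of leukocytes in TG 3 was largely *H2-Ab1* (90.9 FPKM) and *Lyz2* (54.1 FPKM). Of single genes, 9 of 13 leukocyte, 5 of 6 endothelium, 13 of 14 hair and 7 of 9 sebocyte markers were highest in TG 3. Adipocyte markers summed to 1374 to 3228 FPKM in CTR papillomas and 1545, 2269 and 1716 FPKM in TG papillomas, which was almost all *Fabp4*. The other 7 adipocyte markers were all highest in TG 3, among them *Cfd* with 26.0 FPKM there and at most 0.0484 FPKM in the remaining papillomas, and *Adipoq* (adiponectin) with 3.34 FPKM against 0.0338 FPKM. *Acta1*, the actin of skeletal muscle, was at 251 FPKM in TG 3 and reached no more than 1.41 FPKM elsewhere, and *Tnnt3*, a muscle troponin, at 98.2 FPKM and 0.590 FPKM. *Col1a1* and *Col1a2*, the chains of type I collagen, were at 206 and 209 FPKM in TG 3, with highest values elsewhere of 48.6 and 46.6 FPKM. Of the tested muscle (14) and fibroblast (12) markers, 0 passed the adjusted threshold. Their median log2 differences were 2.29 and 0.92, and 0.24 and 0.10 without TG 3. For the tested leukocyte (9), endothelium (5), hair (5), sebocyte (5) and adipocyte (2) markers the medians were 0.59, 0.67, 0.91, 0.13 and 0.78, and 0.33, 0.31, 0.03, -0.08 and -0.15 without TG 3, with 0 genes past the adjusted threshold.

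*Krt13* and *Krt4*, keratins of mucosal epithelia known to appear in papillomas, are outside the 9 genes and were also named with their values known. *Krt13* had 2406 to 6007 FPKM in CTR papillomas and 1290, 789 and 3210 FPKM in TG 1 to TG 3, and *Krt4* had 300 to 782 FPKM and 18.9, 29.7 and 570 FPKM, so the papillomas with high *Krt1* and *Krt10* had low *Krt4*.

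Promoters are shown for the suprabasal gene *Krt10*, whose level varied most among abundant type I keratins, and for *Krt5*, for comparison with a basal gene. Both come from RefSeq (GRCm38.p6), are the 150 bases before the annotated start, and lie on the minus strand at chr11:99389365-99389514 for *Krt10* and chr15:101712906-101713055 for *Krt5*. Capitals mark the motifs found.
Krt10: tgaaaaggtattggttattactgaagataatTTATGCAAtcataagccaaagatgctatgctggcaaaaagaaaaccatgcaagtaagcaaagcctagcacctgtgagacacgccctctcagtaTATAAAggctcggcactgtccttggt
Krt5: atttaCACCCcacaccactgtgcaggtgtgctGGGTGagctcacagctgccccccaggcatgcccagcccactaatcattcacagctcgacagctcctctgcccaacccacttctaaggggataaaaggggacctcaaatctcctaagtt
The search covered 250 bases before to 50 bases after the start on both strands. The letters TATAAA stood for a TATA box, found in 13.6% of all 32851 promoters of the table. For AP-1, a dimer of Fos and Jun proteins, the letters were TGANTCA, found in 7.81% of promoters. For AP-2, which acts on many epidermal genes, they were GCCNNNGGC, found in 16.6%. KLF factors were represented by GGGTG, which is so short that 57.5% of promoters held it. For C/EBP, whose members act in suprabasal cells, the letters were TTGCNNAA, found in 10.8%. A homeodomain motif of the NANOG type was written as TAATGG and was found in 7.73% of promoters. *Krt10* held the TATA box at base -26, the C/EBP letters at -119 and the KLF letters at -213, and *Krt5* held the KLF letters at 4 places. In *Krt2*, the TAATGG letters stood at -135 and, on the other strand, at -129. Overlap between motifs was not seen in the printed windows, and a match in letters is not a binding site.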

How the data were processed

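Expression was measured by RNA-seq in 4 CTR and 3 TG papillomas, each from its own mouse and with its own deposited file. Per the labels and methods, stranded polyA+ libraries gave single reads of 40 bases. The submitters' processing notes name TopHat2 2.0.4, Bowtie 0.12.7, SAMtools 0.1.16 and Cufflinks 1.3.0 on GRCm38/mm10. The authors deposited FPKM for 23746 entries per file, with confidence limits in FPKM and a status. All 9 keratins had status OK in all files.

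Entries of a symbol were summed, and genes with status FAIL (17 to 65 entries per file) were left out. Depth is not given in the files and was inferred from interval widths. Intervals cover counting error in 1 library only. Tests used log2(FPKM + 0.5), a scale that understates changes of low genes, and genes whose mean reached 0.5 FPKM were fitted with limma 3.58.1 (R 4.3.3), with a trend and a threshold of 0.05 on Benjamini-Hochberg adjusted p. Exact permutation tests used scipy 1.17.1 (Python 3.11.15), with numpy 2.4.6, pandas 2.3.3, Biopython 1.88 and matplotlib 3.10.9. The fit was checked only for recovery of planted differences in simulated data with independent noise. No papilloma stood apart in them, so this check does not cover the effect of TG 3. The study's own differential test works on aligned reads and was not repeated. Unlike the limma fit, it did call genes at a false discovery rate under 0.05. The paper's list of genes higher in TG papillomas by that test includes *Nanog*, *Ivl* and *Lcn2* and none of the 9 keratins. Shared 40-base stretches were counted on GENCODE transcripts (exact matches), and promoters were read from RefSeq. 5 of the 9 keratins had no promoter entry, and that of *Krt14* began 1480 bases from the locus end in the files and is not shown.

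The members and gene lists were chosen with earlier results of these data known. Named genes were the 9 keratins and *Nanog*, in each list the 3 genes with the smallest limma p (for cell markers the 2 with the highest FPKM), and the 3 genes nearest to each keratin class. Genes named outside this rule, after their values were seen, are given as such beside their values. Alternatives changed the pseudocount (0.1 or 1), the filter (none or 2 FPKM), the scaling (upper quartile, quantile, epidermal reference), the limma trend, quality weights, the entry taken for a symbol, the status filter or the replicate block, or left out 1 papilloma, and 1 more (the papillomas of lower depth only) was chosen after seeing the data.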

Additional observations from a re-analysis of the deposited data

Results flagged for a closer look

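In the CTR group, the *Krt5* level of CTR 1 (942 FPKM) lay far below the other 3 papillomas (1630 to 1730 FPKM). The gap to its nearest neighbor was 0.873 of the whole range of the group, above the limit of 0.829 used for 4 samples. The *Nanog* level of CTR 3 (12.7 FPKM) lay far above the other 3 CTR papillomas (2.70 to 3.35 FPKM), with a gap of 0.936 of the range. Among 21 groups examined, 2 met this limit, and chance gives about 1 in 20. CTR 1 also had the lowest *Krt14* and the lowest *Krt1* of the CTR papillomas, while its *Krt10* was the highest. Without CTR 1 the log2 difference of *Krt5* was -0.13. TG papillomas were not examined in this way, since groups of 3 are too small.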

How the results depend on the processing

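Adjusted p-values of the 8 tested keratins stayed above 0.05 under all 20 alternatives (lowest 0.124, *Krt10* without TG 3), so 0 keratins were called throughout. Outside the fit with quality weights, at most 2 genes of any kind were called in either direction. *Nanog* itself missed the threshold in the main fit (limma adjusted p = 0.40), so the absence of called keratins says little about them. It passed without CTR 3, the CTR papilloma with most *Nanog* (limma adjusted p = 0.0036), and with quality weights (limma adjusted p = 0.032). *Nanog* passed in the papillomas of lower depth as well (limma adjusted p = 0.0037), and 0 keratins were called in these fits. Directions near 0 changed more easily. With scaling to the epidermal reference, which moved the median of all genes from 0.06 to -0.11, the log2 differences were -0.12 for *Krt5*, -0.11 for *Krt14*, -0.11 for *Krt10*, -0.14 for *Krt6b* and -0.15 for *Krt16*. With quality weights they were -0.27 for *Krt5* and -0.0142 for *Krt17*, and 49 genes were called higher and 36 lower. With quantile normalization they were -0.0236 for *Krt10* and -0.0374 for *Krt16*, and with upper-quartile scaling -0.0164 for *Krt6b* and -0.0185 for *Krt16*. Within the papillomas of lower depth, that is without CTR 3 and TG 1 and chosen after seeing the data, they were -0.16 for *Krt14*, -0.69 for *Krt10*, -0.0543 for *Krt6b* and -0.20 for *Krt16*, with 1 gene called higher and 0 lower.

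Leaving out each papilloma in turn gave -0.13 to 0.29 for *Krt5*, -0.20 to 0.40 for *Krt14*, -0.0715 to 2.25 for *Krt1*, -0.60 to 1.46 for *Krt10*, -0.24 to 0.0472 for *Krt6a*, -0.11 to 0.22 for *Krt6b*, -0.24 to 0.38 for *Krt16* and 0.13 to 0.67 for *Krt17*. Between 0 and 2 genes were then called higher and 0 to 1 lower. *Krt2* had a value only without the filter (0.39, limma adjusted p = 0.803).

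No pairing by replicate number is stated, and none was assumed in the main fit. Deviations of same-numbered papillomas correlated at -0.19, 0.04 and -0.15, which does not settle whether they were paired. With the replicate number as a block, *Krt10* stood at -0.0199 and 0 genes were called. The cause of these changes was not tested. With 3 TG papillomas, 1 of which stood apart, the standard errors limit what could be seen, up to 0.99 on the log2 scale for *Krt1*.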
